A study of Homo sapiens with 6 samples.

Results

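The 10 genes described here encode the D cyclins (*CCND1*, *CCND2*, *CCND3*), their kinase partners (*CDK4*, *CDK6*) and the CDK inhibitors of the CIP/KIP family (*CDKN1A*, *CDKN1B*, *CDKN1C*) and of the INK4 locus (*CDKN2A*, *CDKN2B*). They were chosen by name and not by their values, though with earlier results of these data known. All 10 are among the 20347 gene symbols of the expression table. PaTu8988t, an established human line of pancreatic ductal adenocarcinoma (PDAC), was grown in DMEM with fetal bovine serum, and RNA-seq was made from 3 replicates of control cells and from 3 clonally independent *SAMD1* KO clones. For the knockout the study delivered Cas9 and *SAMD1* guide RNAs on a Lenti-CRISPR V2 vector, with a non-targeting version for the control cells, and derived clones under puromycin. Each KO library is thus a clone of its own, while the control libraries are replicates of control cells, so clone-to-clone spread enters the KO group and cannot be told apart from spread that comes with the loss of SAMD1.

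D cyclins connect growth factor signals to the cell cycle. They bind CDK4 or CDK6, and the active kinases phosphorylate the retinoblastoma protein RB and so release E2F transcription factors that drive S phase genes. INK4 proteins bind CDK4 and CDK6 and keep D cyclins away from them, whereas CIP/KIP proteins chiefly block the CDK2 complexes and can also take part in the assembly of cyclin D complexes. In PDAC, *CDKN2A* and the TGF-beta mediator *SMAD4* are among the genes most often inactivated. SAMD1 is a protein that binds unmethylated CpG islands at promoters.

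The libraries held 35589477 to 45172216 reads that could be assigned to genes. The table lists normalized counts, that is reads divided by 1 size factor per library, and the size factors ran from 0.873 to 1.16. *SAMD1* itself had 2304 ± 76.1 normalized counts in control cells and 926.9 ± 136 in the KO clones (mean ± SD, n = 3, as in all means below), a log2 fold change of -1.32 (SE 0.10, limma adjusted p = 0.000724). It kept reads in every clone and was lower in every clone than in every control replicate. These are RNA values, and the study checked the knockout in this line at the protein level by western blot and immunofluorescence. Among epithelial markers, *KRT8*, *KRT18* and *EPCAM* were well above 10 normalized counts, *CDH1* was low at 38.3 in control cells and 41.5 in KO cells, and *KRT19* was listed at 0 in all libraries. The 4 immune markers were each under 10 normalized counts on average, with a sum of at most 8.8 in a library. The sum of the 5 epithelial markers ran from 62697 to 65909 in control cells and from 67571 to 108505 in the clones, nearly all of it from *KRT8* and *KRT18*, while *EPCAM* was at 537.3 and 519.8. The sum of the 5 mesenchymal and fibroblast markers, nearly all of it from *VIM*, ran from 38330 to 39957 and from 46270 to 68117, and *COL1A2*, *DCN* and *PDGFRB* were each under 10. The 3 endothelial markers summed to 77.8 to 84.8 in control cells and 33.6 to 83.6 in the clones, with *CDH5* at 33.1 and 10.6. The part of these differences in the results below was not tested.

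The letters GCGC are associated with SAMD1 binding in CpG islands, and the sequence just before the start site of *CDK6*, the only one of the 10 genes that passed the cut-off of the study, is shown here beside those of its partner kinase *CDK4* and of the INK4 gene *CDKN2B*, so that the presence of these letters can be seen. Each is the 250 bases before a RefSeq transcript start (GRCh38.p14, minus strand), written 5′ to 3′ with each GCGC in capitals, a motif that reads the same on both strands and was counted with overlaps.
CDK6, chr7:92836574-92836823: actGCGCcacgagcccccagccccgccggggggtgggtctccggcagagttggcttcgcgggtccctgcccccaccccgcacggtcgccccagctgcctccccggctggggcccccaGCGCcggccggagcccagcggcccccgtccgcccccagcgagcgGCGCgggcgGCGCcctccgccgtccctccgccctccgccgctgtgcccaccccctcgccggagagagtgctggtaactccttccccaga
CDK4, chr12:57752311-57752560: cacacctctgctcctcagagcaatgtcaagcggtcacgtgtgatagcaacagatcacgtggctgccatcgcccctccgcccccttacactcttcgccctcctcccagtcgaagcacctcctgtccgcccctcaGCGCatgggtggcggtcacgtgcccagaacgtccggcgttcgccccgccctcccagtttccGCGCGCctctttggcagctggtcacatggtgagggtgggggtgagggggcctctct
CDKN2B, chr9:22009306-22009555: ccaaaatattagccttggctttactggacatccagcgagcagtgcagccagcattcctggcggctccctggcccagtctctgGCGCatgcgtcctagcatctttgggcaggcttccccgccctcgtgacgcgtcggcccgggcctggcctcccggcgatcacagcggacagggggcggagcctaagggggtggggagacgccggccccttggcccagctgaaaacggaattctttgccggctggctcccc
The windows of *CDK6* and *CDKN2B* end at the first base outside the annotated gene, and that of *CDK4* lies inside the gene as GENCODE 44 draws it, because longer transcripts begin upstream. GCGC occurred 4 times before *CDK6*, 3 times before *CDK4* and 1 time before *CDKN2B*. A second RefSeq start of *CDK6* also had 4. Entries were found for 7 of the 10 genes, the others being *CCND1*, *CCND2* and *CDKN1C*. The count was 6 for *CDKN1A* and 5 for *CDKN1B*, while the *CDKN2A* starts had 3 and 1 and the *CCND3* starts had 5, 4 and 0. GCGC was present in 75.6% of the 15121 promoters of tested genes, with a median count of 2, so its presence sets none of these genes apart. Whether SAMD1 was bound there was not analysed here.

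Only *CDK6* changed by the cut-off of the study, a log2 fold change beyond 0.5 with an unadjusted p below 0.01. In the limma fit over the 12773 genes whose normalized count averaged 10 or more, all 10 genes were tested, 1 was called lower and 0 were called higher. Over all tested genes 7.85% were called, 5.77% higher and 2.08% lower, so 1 of 10 is near the background. By an unadjusted p below 0.05 there were 4 of the 10 genes, beside 29.6% of all tested genes, and by an adjusted p below 0.05 only *CDK6*, beside 13.0%, so these counts are near the background too. On the recovered reads edgeR put *CDK6* just inside the fold limit (-0.50, adjusted p = 0.0286), and DESeq2 put it just beyond (-0.50, adjusted p = 0.000766). The median log2 fold change of the 10 genes was -0.06, with 4 positive and 6 negative values, beside -0.006 for all tested genes. For 4 of the 10 genes control and KO libraries were fully separated, with *CCND1* and *CDKN2B* higher and *CDK6* and *CDKN1B* lower in the clones. Such separation, with no overlap, was seen for 37.8% of all tested genes.

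**Figure D1:**
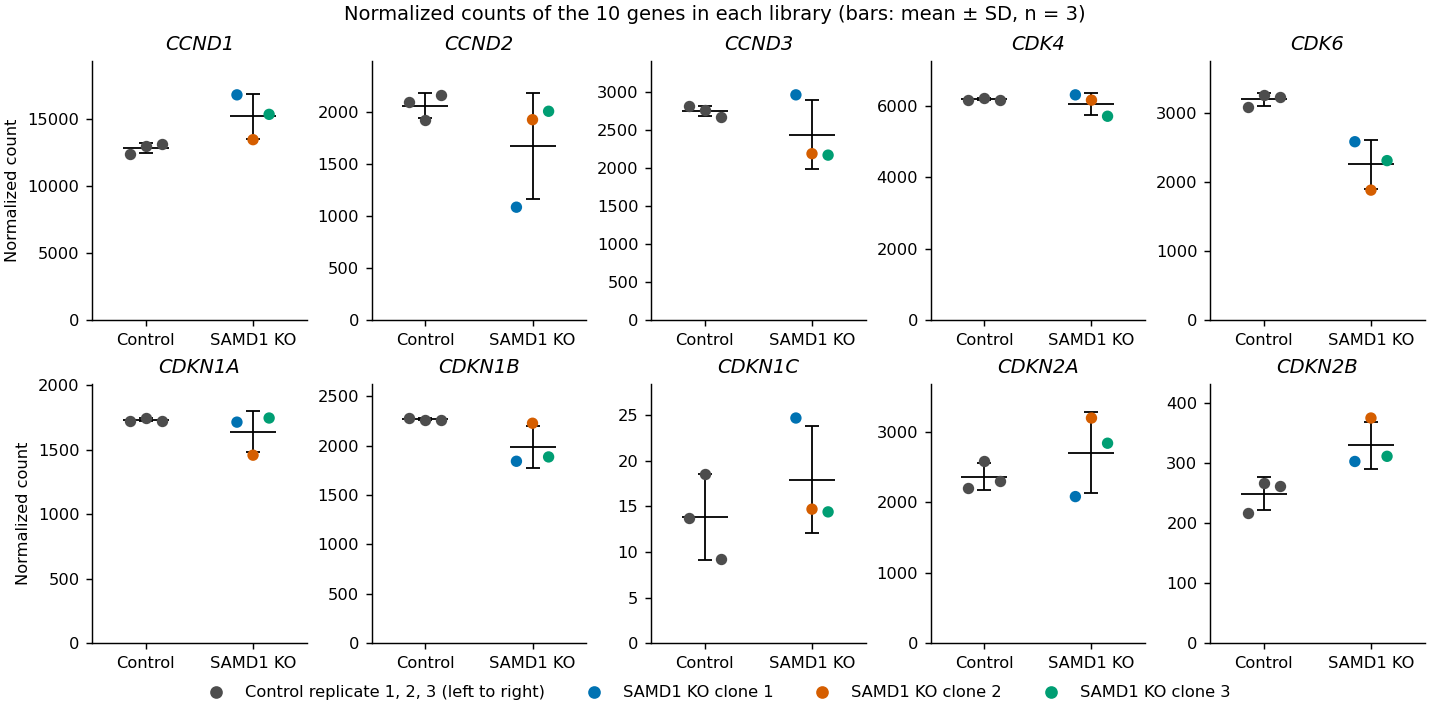
Normalized count (y axis, from 0, a separate scale for each gene) of the 10 genes in the 3 control replicates (grey) and *SAMD1* KO clones 1, 2 and 3 (blue, orange and green), with the mean ± SD of each group as black bars. The *CDK6* points of the clones, from 1883 to 2585, lie below all control points, and the *CCND2* point of clone 1 at 1085 lies apart from the other 5 libraries.

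*CCND1*, the D cyclin with the highest level in these cells (chr11:69641156-69654474, plus strand), had 12375, 12968 and 13124 normalized counts in control replicates 1 to 3 and 16775, 13435 and 15321 in clones 1 to 3. All clones lay above all control replicates, clone 2 by the smallest margin. The mean went from 12822 ± 395 to 15177 ± 1675, a log2 fold change of 0.24 (SE 0.084, 95% interval 0.04 to 0.43), which did not pass the cut-off (limma adjusted p = 0.11). Without clone 2 the value was 0.32 and the limma adjusted p was 0.0189, still short of the fold limit, and without clone 1 it was 0.16 (limma adjusted p = 0.14). At 10.4% of its exon bases *CCND1* overlaps *LTO1* on the opposite strand, which had 970.4 and 963.5 normalized counts in control and KO cells.

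*CCND2* (chr12:4269771-4305353, plus strand), a D cyclin used in a more tissue-restricted way, had 2098, 1925 and 2166 normalized counts in control cells and 1085, 1927 and 2008 in the clones. Clone 1 stood apart from the other clones, which lay within the control range. The log2 fold change of -0.35 had a 95% interval from -0.87 to 0.16 (SE 0.22, limma adjusted p = 0.328), and without clone 1 it was -0.07. Relative to the control mean the log2 differences of clones 1 to 3 were -0.92, -0.10 and -0.04. An annotated gene on the same strand shares 12.5% of the exon bases of *CCND2*, and how reads on such bases were assigned is not given in the sources used here.

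*CCND3* (chr6:41934934-42050357, minus strand), the third D cyclin, had 2816, 2770 and 2678 normalized counts in control cells and 2969, 2193 and 2174 in the clones. Here too clone 1 differed from the other clones, but in the other direction, since it lay above every control replicate while clones 2 and 3 lay below. The log2 fold change was -0.19 (SE 0.12, 95% interval -0.47 to 0.09, limma adjusted p = 0.34). Without clone 1 it was -0.33 with a limma adjusted p of 0.00827, still short of the fold limit, and it was -0.12 without clone 2 and -0.11 without clone 3 (limma adjusted p = 0.57 and 0.58). The clone differences were 0.11, -0.33 and -0.34.

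Levels of different genes were compared per kilobase of exon. In control cells *CCND1* stood at 2693 normalized counts per kb, *CCND3* at 478.2 and *CCND2* at 258.2, and these values did not overlap between the genes. *CCND1* accounted for 77.6%, 79.1% and 78.9% of the summed D cyclin level in control cells and for 84.4%, 81.9% and 83.7% in clones 1 to 3. The share was thus higher in all 3 clones, at 83.3% ± 1.26 against 78.5% ± 0.82 (two-sided exact permutation test, p = 0.1, the smallest that 3 against 3 libraries allow; 0.28 after adjustment over the 14 class values tested). The share of *CCND3* was lower in all 3 clones, at 11.1% ± 1.27 against 14.0% ± 0.639 (exact permutation p = 0.1, adjusted 0.28). That of *CCND2* was 7.53% ± 0.468 in control cells and 5.60% ± 2.04 in the clones, with 3.25% in clone 1 (exact permutation p = 0.2, adjusted 0.31). The summed level of the D cyclins was 3430 ± 72.2 per kb in control cells and 3822 ± 366 in the clones, and the libraries overlapped (exact permutation p = 0.3, adjusted 0.42). The size of the shares depends on the length used. With the length of the canonical transcript *CCND1* held 64.3% and *CCND3* 28.9% in control cells, and 70.9% and 23.8% in the clones.

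*CDK6* (chr7:92604921-92836573, minus strand), a kinase partner of the D cyclins, had 3090, 3265 and 3239 normalized counts in control replicates 1 to 3 and 2585, 1883 and 2311 in clones 1 to 3. Every clone lay below every control replicate. The mean fell from 3198 ± 94.8 to 2260 ± 353, which is 70.7% of the control level, with a log2 fold change of -0.51 (SE 0.11, 95% interval -0.77 to -0.25, limma p = 0.00215, adjusted p = 0.0262, exact permutation p = 0.1). Relative to the control mean the log2 differences were -0.31, -0.76 and -0.47, so clone 2 was lowest and clone 1 the least changed. The value lies close to the fold limit, and it fell short of the cut-off without clone 2 (-0.39, limma adjusted p = 0.0149) and without control replicate 2 (-0.50, limma adjusted p = 0.11). In all 15 alternative settings *CDK6* was lower in the clones, at -0.62 to -0.39.

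*CDK4* (chr12:57747727-57756013, minus strand), the second kinase partner, had 6171, 6218 and 6167 normalized counts in control cells and 6311, 6163 and 5711 in the clones. The groups overlapped, with clone 1 above and clones 2 and 3 below the control replicates. The log2 fold change was -0.03, with a 95% interval from -0.16 to 0.10 (SE 0.054, limma adjusted p = 0.747), and its sign turned without clone 3 (0.01). A limit of this measurement is that *CDK4* shares 44.2% of its exon bases with *TSPAN31* on the opposite strand, which had 801.4 normalized counts in control cells and 892.1 in KO cells. The library kit keeps the strand, but the strand setting of the counting is not given in the sources used here.

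Of the summed level of the kinases per kb, *CDK6* held 11.2%, 11.7% and 11.7% in control cells and 9.38%, 7.17% and 9.28% in the clones. The share was lower in all 3 clones, at 8.61% ± 1.25 against 11.6% ± 0.281 (exact permutation p = 0.1, adjusted 0.28). On average *CDK4* stood at 1999 per kb in control cells and 1959 in the clones, and *CDK6* at 261.3 and 184.6, so *CDK6* gave the larger part of the difference in the sum although *CDK4* held most of its level. The sum was 2260 ± 14.9 in control cells and 2144 ± 108 in the clones, with overlap (exact permutation p = 0.2, adjusted 0.31). Without division by length, where the longer *CDK6* weighs more, the sum was 9261 to 9483 normalized counts in control cells and 8021 to 8895 in the clones, with no overlap (exact permutation p = 0.1). The 2 genes whose clone differences were closest to those of *CDK6*, by the Euclidean distance over the 3 clones among 11453 genes, were *PLAC8* (distance 0.078, log2 fold change -0.48) and *NEDD4L* (0.082, log2 fold change -0.50).

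**Figure D2:**
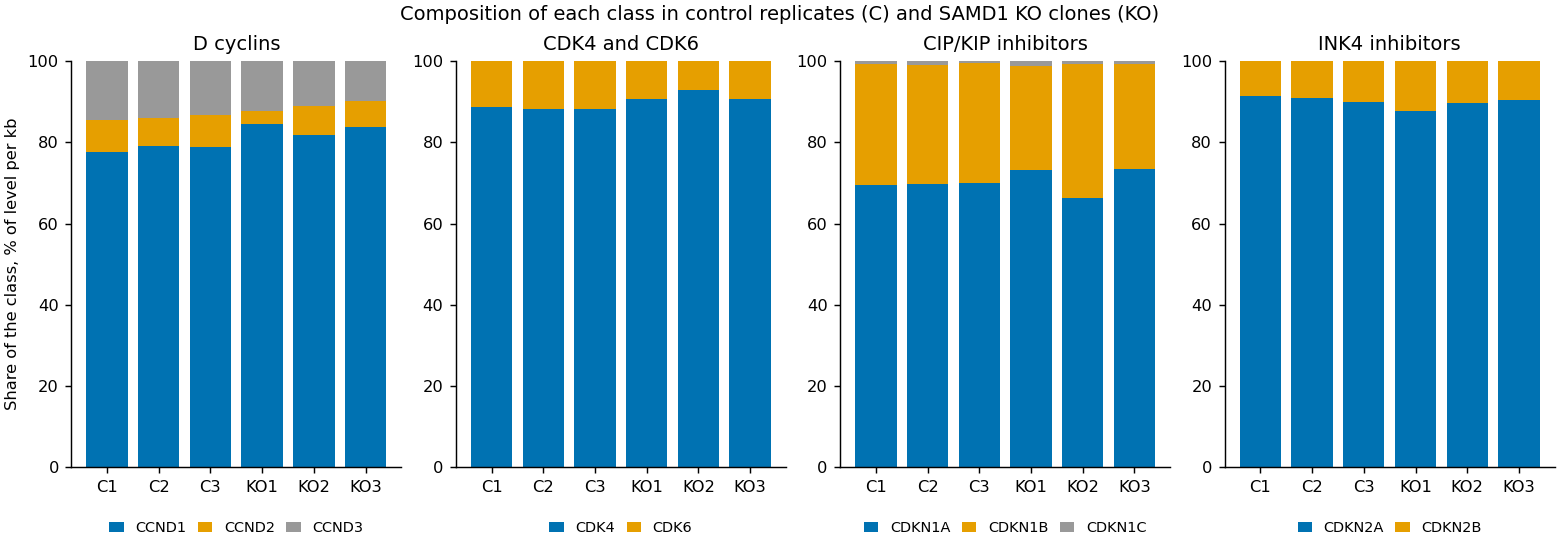
Share of each gene (y axis, in % of the summed level per kb of its class) in control replicates 1 to 3 (C1 to C3) and *SAMD1* KO clones 1 to 3 (KO1 to KO3), with 1 panel for each class. The *CCND1* part of the D cyclin bars is 77.6% to 79.1% in control cells and 81.9% to 84.4% in the clones, and the *CDK6* part of the kinase bars is 11.2% to 11.7% and 7.17% to 9.38%.

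*CDKN1A* (chr6:36676460-36687337, plus strand) encodes p21, the CIP/KIP inhibitor that p53 induces. It had 1725, 1745 and 1723 normalized counts in control cells and 1713, 1457 and 1745 in the clones, so that only clone 2 lay clearly outside the narrow control range. The log2 fold change was -0.08 (SE 0.080, 95% interval -0.27 to 0.10, limma adjusted p = 0.527). *CDKN1B* (chr12:12685498-12722369, plus strand) encodes p27, whose amount is set to a large part by protein breakdown. It had 2279, 2257 and 2262 normalized counts in control cells and 1841, 2226 and 1885 in the clones. All clones lay below all control replicates, with clone 2 nearest to them. The log2 fold change of *CDKN1B* was -0.20 (SE 0.080, 95% interval -0.39 to -0.01, limma adjusted p = 0.154), and it was -0.28 without clone 2 (limma adjusted p = 0.0185), still short of the fold limit, and -0.14 without clone 1 (limma adjusted p = 0.232).

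*CDKN1C* (chr11:2883213-2885775, minus strand), an imprinted gene that encodes p57, was barely measured, with 8 to 25 reads in a library. Its normalized counts were 13.7, 18.6 and 9.2 in control cells and 24.7, 14.7 and 14.4 in the clones. The libraries overlapped, and the 95% interval of the log2 fold change of 0.36 ran from -0.50 to 1.22 (SE 0.37, limma adjusted p = 0.552). This interval was wider than that of *CDK6*, and which differences could be detected at this depth was not tested.

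The summed CIP/KIP level per kb was 827, 834 and 823 in control cells and 781, 733 and 792 in the clones. It was lower in all 3 clones, at 768 ± 31.4 against 828 ± 5.28 (exact permutation p = 0.1, adjusted 0.28). The members behind this differed by clone, since *CDKN1B* was lower in clones 1 and 3 and *CDKN1A* in clone 2. *CDKN1A* held 73.2%, 66.4% and 73.5% of the summed level in clones 1 to 3 beside 69.6% to 69.9% in the control replicates (exact permutation p = 0.5, adjusted 0.50). Which gene held more depends on the length used. With the length of the canonical transcript *CDKN1A* held 46.3% and *CDKN1B* 53.2% on average in control cells.

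*CDKN2A* (chr9:21967752-21995301, minus strand) encodes the CDK4/6 inhibitor p16INK4a and, from another first exon, the p53 pathway protein p14ARF, which a count per gene cannot separate. It had 2210, 2588 and 2299 normalized counts in control cells and 2081, 3197 and 2839 in the clones. Clone 1 was below and clones 2 and 3 above the control replicates. The log2 fold change was 0.17 (SE 0.15, 95% interval -0.18 to 0.53, limma adjusted p = 0.489), and without clone 1 it was 0.35 with a limma adjusted p of 0.0377, short of the fold limit. It was 0.04 without clone 2 and 0.13 without clone 3 (limma adjusted p = 0.864 and 0.657). The antisense RNA *CDKN2B-AS1* covers 15.3% of its exon bases.

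*CDKN2B* (chr9:22002903-22009305, minus strand) encodes p15INK4b, which TGF-beta signaling is known to induce. It had 217.3, 267.1 and 262.3 normalized counts in control cells and 302.6, 375.0 and 311.2 in the clones. All clones lay above all control replicates. The mean went from 248.9 ± 27.5 to 329.6 ± 39.5, a log2 fold change of 0.40 (SE 0.13, 95% interval 0.09 to 0.72), which did not pass the cut-off (limma adjusted p = 0.0936). *CDKN2B* held 9.27% ± 0.643 of the INK4 level per kb in control cells and 10.7% ± 1.44 in the clones (exact permutation p = 0.2, adjusted 0.31). The summed INK4 level was 671 ± 56.2 and 779 ± 155 (exact permutation p = 0.4, adjusted 0.43).

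**Figure D3:**
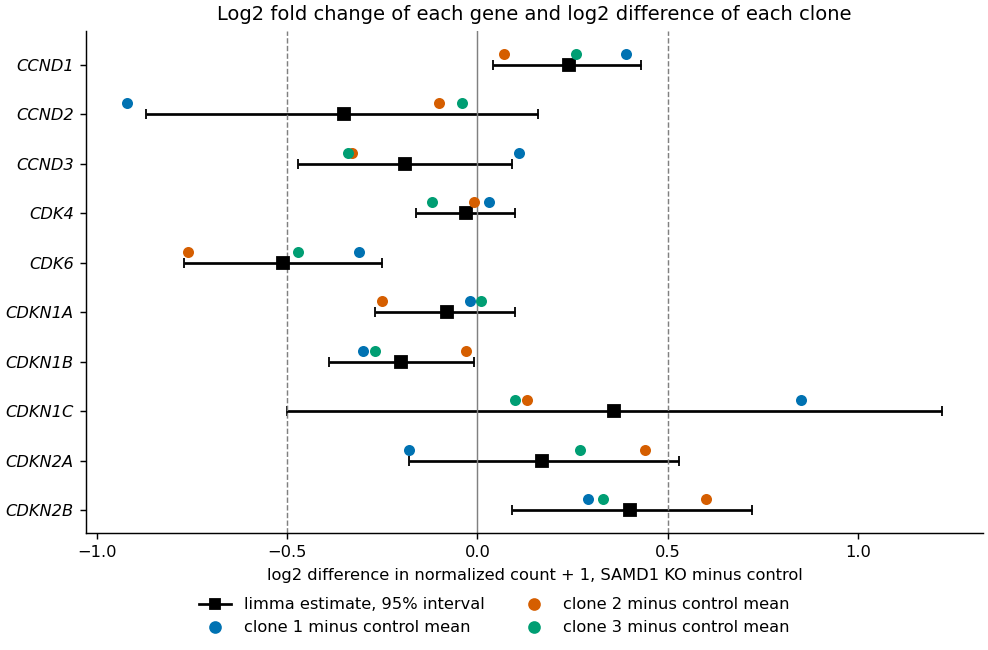
Log2 fold change of the 10 genes (x axis, *SAMD1* KO against control, on log2(normalized count + 1)) from limma with its 95% interval (black) and the log2 difference of each clone from the control mean (blue, orange and green for clones 1, 2 and 3). Dashed lines mark 0.5 in each direction, and only the *CDK6* estimate, at -0.51, lies beyond them.

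In order of their level per kb, the control cells had *CCND1*, *CDK4*, *CDKN2A* (608.9), *CDKN1A* (577.7), *CCND3*, *CDK6*, *CCND2*, *CDKN1B* (244.8), *CDKN2B* (62.2) and *CDKN1C* (5.6). The values of *CDKN2A* and *CDKN1A* overlapped, as did those of *CDK6* with *CCND2* and of *CCND2* with *CDKN1B*. In the clones *CDK6*, at 184.6, came after *CDKN1B* (214.4) and *CCND2* (209.4), but their ranges overlapped in this order as well. The order depends on the length used. With the length of the canonical transcript *CDK4* came first in control cells, at 3317 per kb, before *CCND1* at 3026. On that scale *CDKN1B* (939.9) came before *CDKN1A* (817.5) in control cells.

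The clones varied more than the control replicates. In 9 of the 10 genes the SD of the log2 values was larger among the clones, the exception being *CDKN1C*, and the same was the case for 82.8% of all tested genes. The median SD over all tested genes was 0.059 in control cells and 0.151 in the clones. Among the 10 genes, the log2 difference from the control mean was beyond 0.5 for *CCND2* and *CDKN1C* in clone 1, for *CDK6* and *CDKN2B* in clone 2 and for no gene in clone 3. Over all tested genes 16.7%, 20.2% and 16.2% were beyond 0.5 in clones 1, 2 and 3. *CCND3* and *CDKN2A* are genes in which clone 1 took the direction opposite to clones 2 and 3.

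To see whether a gene moved alone, the 3 nearest tested genes on each side were set beside it. For *CDK6* the medians of these 6 neighbours were -0.14, -0.18 and -0.03 in clones 1 to 3, each nearer to 0 than the *CDK6* values. None of the 6 was called. Among them *SAMD9* and *SAMD9L*, named after their values were seen, varied far more between clones than *CDK6*, with log2 differences of -1.60, -1.83 and -0.08 for *SAMD9* and of -0.96, -4.44 and 0.39 for *SAMD9L*. For *CCND2*, which was low in clone 1, the neighbours had a median of -0.19 there, beside -0.92 for the gene itself. For *CCND1* the medians were 0.01, -0.03 and -0.04. Of its 6 neighbours 2 were called higher, *MYEOV* (log2 fold change 0.68) and *ANO1* (1.90, from 27.7 to 106.6 normalized counts). Of the 6 neighbours of *CCND3* 1 was called lower, *C6orf132* (-0.61). These neighbours were named after their values were seen. Over all tested genes 7.85% were called, and the counts of called neighbours here and below were not tested against this share.

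The neighbours of *CDKN1C* had the medians furthest from 0, at 0.54, 0.41 and 0.24 in clones 1 to 3. All 6 had a positive log2 fold change, while 5 of 6 neighbours had the sign of the gene for *CCND3*, *CDK6* and *CDKN1A*. Of the neighbours of *CDKN1C*, *PHLDA2* was near 0 (0.07), with only 13.2 and 14.9 normalized counts in control and KO cells. Among the 6, 1 was called, *KCNQ1* (0.81). Both were named after their values were seen. Next to *CDKN1B*, *DUSP16* (0.66) and *GPRC5A* (0.51), named in the same way, were called higher while *CDKN1B* was at -0.20. *CDKN2A* and *CDKN2B* are neighbours of each other, and the medians around them stayed between -0.11 and 0.09. Their neighbour sets share most genes and span 4679 and 5563 kb, beside 78 kb for *CDK4*, so these medians are neither separate nor close to the genes. Of the 6 neighbours of *CDKN2B*, 2 had a log2 fold change of the same sign, *CDKN2A* and *DMRTA1*. *DMRTA1*, named after its values were seen, was not called (0.47), with log2 differences of 0.35, 0.58 and 0.48 in clones 1 to 3.

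**Figure D4:**
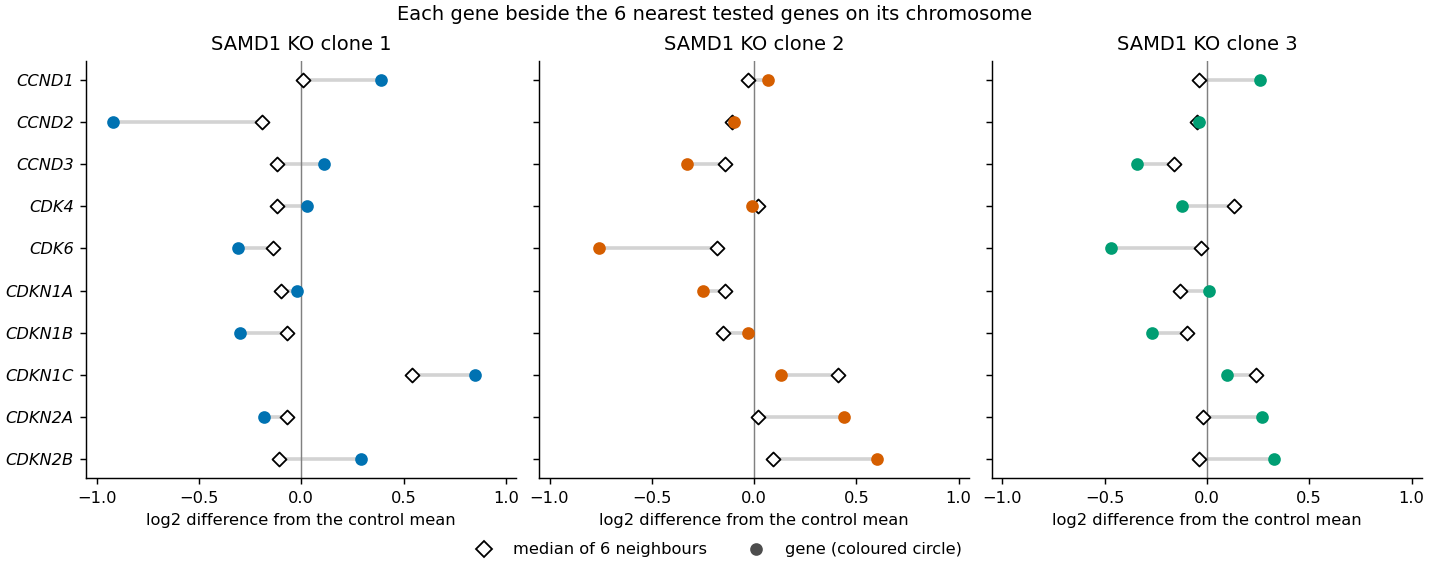
Log2 difference from the control mean (x axis) of each of the 10 genes (coloured circle) and the median of its 6 nearest tested neighbours (open diamond), with 1 panel for each clone. The *CDK6* circles lie left of their diamonds in all 3 clones, and the *CDKN1C* diamonds lie at 0.54, 0.41 and 0.24.

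Around the D cyclin and CDK4/6 step, 6 gene lists were followed. Their counts stand beside 7.85% called, 29.6% with an unadjusted p below 0.05 and 13.0% with an adjusted p below 0.05 among all tested genes. The shares of the lists lay on both sides of the 29.6% and were not tested against it. Of 13 pocket protein and E2F genes 0 were called by limma, with a median log2 fold change of -0.07. In this list 5 had an unadjusted p below 0.05, a larger share than the 29.6%. By an adjusted p below 0.05, 2 were lower and 0 higher. *RB1*, which encodes the main substrate of the D cyclin kinases, had 6576 ± 137 normalized counts in control cells and 6449 ± 38.0 in the clones (log2 fold change -0.03, limma adjusted p = 0.724). *E2F3*, an activator E2F, was lower in every clone, at 2573 ± 107 against 3374 ± 68.0, with a log2 fold change of -0.39 and a limma adjusted p of 0.00523. It did not reach the fold limit.

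Of the 18 tested genes for other cyclins, CDKs and their regulators 0 were called by limma, and 2 had an unadjusted p below 0.05, a smaller share than the 29.6% of all tested genes. Their median was -0.16, with clone medians of 0.05, -0.13 and -0.22. *CDK2*, the kinase that CIP/KIP proteins block, was at 7898, 6018 and 5958 normalized counts in clones 1 to 3 beside 8686 ± 146 in control cells (log2 fold change -0.40, limma adjusted p = 0.051). Of 17 tested genes for the turnover of D cyclins and inhibitors 0 were called by limma, with 2 at an unadjusted p below 0.05, again a smaller share than 29.6%, and a median of -0.06. *SKP2*, which recognizes p27 for degradation, had 10179, 7754 and 8199 normalized counts in the clones beside 11099 ± 109 in control cells (log2 fold change -0.36, limma adjusted p = 0.0552). In *CDK2* and *SKP2* clone 1 was the clone nearest to the control cells, as it was for *CDK6*.

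Of 22 RB-E2F target genes, which respond when RB is phosphorylated, 0 were called by limma, 3 had an unadjusted p below 0.05, also a smaller share than 29.6%, and the median was -0.07. The clone medians were 0.15, -0.10 and -0.25, so clone 1 differed in direction from clones 2 and 3. Of the 22 genes 15 had a negative and 7 a positive log2 fold change, and by an adjusted p below 0.05 1 was higher and 1 lower. *POLA1*, the catalytic subunit of DNA polymerase alpha, had the smallest p, with 3616 ± 104 normalized counts in control cells and 4945 ± 580 in the clones (log2 fold change 0.45, limma adjusted p = 0.0166). The lower gene was *MYBL2* (log2 fold change -0.28, limma adjusted p = 0.0356), named after its values were seen.

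Of 26 tested p53 target genes 2 were called higher and 0 lower (7.69%, beside 7.85% of all tested genes), with a median of 0.05. By an unadjusted p below 0.05, 6 were higher and 3 lower, a larger share than 29.6%. *PHLDA3*, an inhibitor of AKT, was higher in every clone, at 253.7 ± 21.9 against 129.6 ± 21.5 (log2 fold change 0.97, limma adjusted p = 0.00915). *TP53INP1* had 515.2, 838.0 and 720.5 normalized counts in the clones and 450.3 ± 13.2 in control cells (log2 fold change 0.59, limma adjusted p = 0.0636). The count of called genes in this list was 6 without clone 1, and it was 1 without clone 2 or without control replicate 1 or 2. *CDKN1A*, the p53 target among the 10 genes, was at -0.08.

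Of 21 tested transcription regulators of the 10 genes 1 was called higher and 1 lower, with a median of 0.02. By an unadjusted p below 0.05, 2 were higher and 3 lower, a smaller share than 29.6%. *ETS1*, an ETS family factor, was lower in every clone, at 17307 ± 1925 against 28040 ± 200 (log2 fold change -0.70, limma adjusted p = 0.00277). *FOXO1*, a factor that activates *CDKN1B* in other settings, was higher in every clone, at 586.8 ± 56.2 against 367.6 ± 8.25 (log2 fold change 0.67, limma adjusted p = 0.00617), while *CDKN1B* was at -0.20. *SMAD4*, a mediator of TGF-beta signaling to *CDKN2B*, was named after its values were seen. It had at most 1.0 normalized count in any library.

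**Figure D5:**
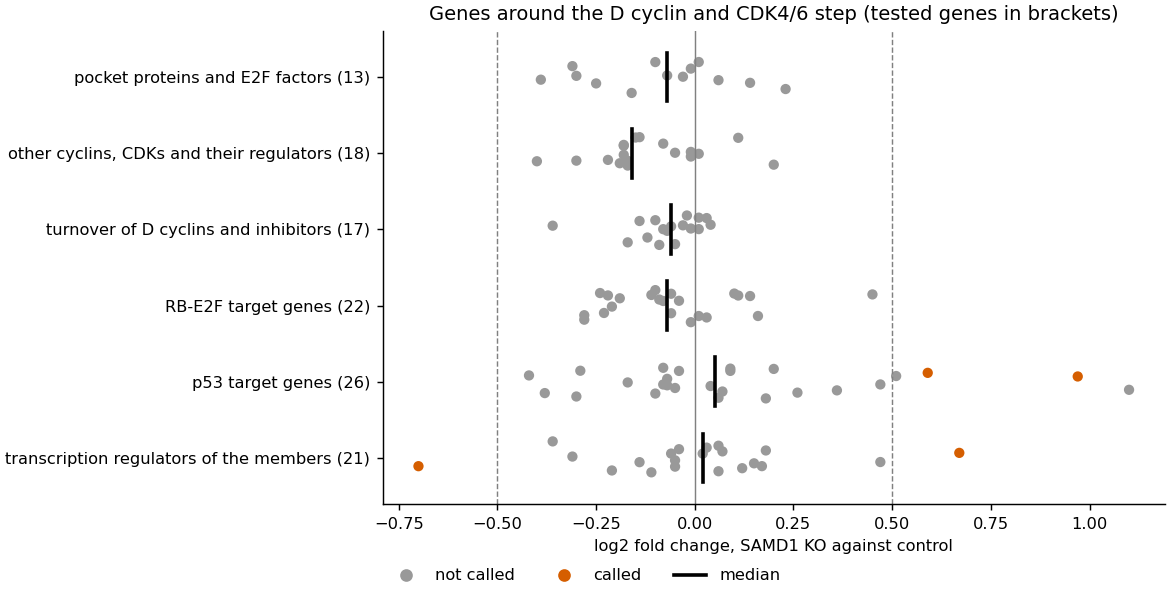
Log2 fold change (x axis, *SAMD1* KO against control) of each tested gene in the 6 lists (rows, number of tested genes in brackets, vertical scatter within a row without meaning), with called genes in orange, others in grey, the median of a list as a black bar and dashed lines at 0.5 in each direction. Of all points 4 are orange, 2 in the p53 target list and 2 among the transcription regulators.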

How the data were processed

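Reads of 3 control and 3 *SAMD1* KO libraries were, by the study's methods, aligned with RNA-STAR to the human transcriptome and compared with DESeq2. The submitters' processing notes name hg38, featureCounts and DESeq2. The deposited values are a signal, a count divided by a size factor, from which whole reads were recovered (100% of values within 0.05). The authors' table of their own comparison (mean, log2 fold change, standard error, Wald statistic, p-values) was not used. limma 3.58.1 in R 4.3.3 (trend, two-sided) was run on log2(normalized count + 1), with Benjamini-Hochberg adjustment over all tested genes, and was tested on simulated data. The simulation changed 200 genes 2-fold and gave both groups the same spread. It therefore does not cover smaller changes or clones that vary more than the control replicates. How far the number of reads or the number of libraries limits precision was not tested. *CDKN1C* had only 8 to 25 reads in a library. P-values measure the spread between these libraries. The limma intervals and p-values use 1 variance for both groups of a gene, although the clones mostly varied more. For *CDK6* the SD of the log2 values was 0.043 in control cells and 0.231 in the clones. A fit with unequal variances was not run.

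The 10 genes, the lists and the tests were chosen with earlier results of these data known. Besides *SAMD1* and the 10 genes, the text names, in each list, the called genes (up to 3) or the gene with the smallest p, *RB1*, and the 2 genes most like a called one. Alternatives were edgeR 4.0.16 and DESeq2 1.42.0 on recovered reads, each library left out, a block for the replicate number, scaling to the 75th percentile, pseudocounts of 0.1 and 10, a minimum mean of 50 or none, the cut-off with an adjusted p, and other lengths for shares. Same-numbered libraries had correlations of 0.039, 0.134 and 0.032 between their deviations, so the numbers were not taken as pairs. Positions are from GENCODE 44.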

Additional observations from a re-analysis of the deposited data

How the results depend on the processing

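Of 149 values of the 10 genes under alternatives, 144 kept direction and call, and those of 8 genes all did. *CDK6* was called in 11 of 15 alternatives, with adjusted p from 0.000766 to 0.112. With each library left out, its limma adjusted p was below 0.05 in 3 of 6 fits. The others were those without control replicate 1, 2 or 3, at 0.097, 0.11 and 0.112. *CDK6* fell short with rescaling by the 75th percentile (-0.493) and with edgeR (-0.497), both just inside the fold limit by their own scaling. Its log2 fold change ran from -0.616 to -0.387 with each library left out. *CDK4* ran from -0.0602 to 0.0119 in the same fits. Over all tested genes 266 were called lower, and 177 (without control replicate 2) to 369 with each library left out. The p53 target list had 1 called gene in place of 2 with a mean of at least 50, with rescaling, with the replicate block and with an adjusted p in the cut-off, and 1 to 6 with each library left out. The lists of other cyclins and of RB-E2F targets each had 0 to 1, with 1 without clone 1 and without clone 2, respectively. The cause was not tested. The share of *CCND1* differed by 6.62 percentage points with canonical transcript lengths (added after seeing the data) in place of 4.82, and that of *CDK6* by -6.99 without division by length in place of -2.95, which follows from the lengths.

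With the replicate number as a block *CDK6* stayed called (-0.513, adjusted p = 0.0429) and no call among the 10 genes changed. The numbers were not taken as pairs, since the correlations were small. Each clone correlated best with the control replicate of its own number, at 0.039, 0.134 and 0.032 for clones 1 to 3. Control replicate 3 correlated slightly more with clone 1 (0.036) than with clone 3. *CDKN1C* has no value with a mean of at least 50. How far the spread among clones, with 3 libraries in each group, limits what can be detected was not tested.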
